A study of Rattus norvegicus with 6 samples.

Results

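The genes described here encode the chaperones, folding enzymes, stress sensors, degradation factors and translocation machinery of the endoplasmic reticulum (ER). They were chosen by gene symbol from a list of 40 names, and 39 of them were found among the 30560 genes of the deposited table. The other, Manf, was not analysed here. Expression was measured by RNA sequencing in primary cardiac fibroblasts from the ventricles of Sprague-Dawley rats aged 1 to 2 days, separated from cardiomyocytes by preferential attachment and kept without serum overnight. The cells were transfected with 50 nM of an antagomiR, a chemically modified antisense oligonucleotide that binds a mature microRNA, directed against miR-142-3p, or with 50 nM of a negative control oligonucleotide (NC). Both groups received the same transfection reagent, and the comparison asks which transcripts differed when miR-142-3p was targeted. Each group had 3 libraries. Since no label ties a library to its own culture or isolation, the p-values reflect library-to-library spread, which may be technical.

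Secreted and membrane proteins enter the ER through the Sec61 channel, are folded there by chaperones and disulfide isomerases, and are returned to the cytosol for degradation when folding fails. The sensor proteins IRE1, PERK and ATF6 respond to unfolded protein in the ER lumen and set off the unfolded protein response (UPR), which raises transcription of chaperone and degradation genes and lowers translation. Fibroblasts secrete large amounts of collagen and other matrix, so this machinery is prominent in them.

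Transcription of many of these genes is known to run through a promoter motif, the ER stress response element (ERSE), which is read by ATF6 and XBP1 together with the CCAAT-binding factor NF-Y. It is spelled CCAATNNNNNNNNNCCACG. A related motif, ERSE-II, is spelled ATTGGNCCACG. Both were searched on both strands in the RefSeq promoter table of the build GRCr8, which holds 250 bases before to 50 bases after each annotated start. The 2 motifs shared no bases in the matches shown. Promoters matched 31 of the 40 names. An ERSE was present in 8 of the 31 (25.8%), against 22 of all 33469 promoters in the table (0.0657%), and an ERSE-II in 3 of the 31 (9.68%), against 17 of all (0.0508%). Members are counted here by gene symbol and all promoters by entry, members included. Many of these genes are known for this motif, so the excess is not a result of these data. The matches are letters in a window and do not show that a factor was bound. They are printed 5′ to 3′ on the strand that carries the motif, with 5 flanking bases on each side and the fixed bases in capitals, because they are the known route of induction by ER stress; 11 of the 31 members with a promoter held a match. The names carry the position in GRCr8 and the strand.
Hspa5, chr3:38452968-38452996 (+): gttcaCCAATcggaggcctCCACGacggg
Hsp90b1, chr7:23012342-23012370 (+): acccaCCAATcgtgcctcaCCACGcactc
Hsp90b1, chr7:23012446-23012474 (-): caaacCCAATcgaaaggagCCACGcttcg
Calr, chr19:40213130-40213158 (-): ctgggCCAATcagggtcgaCCACGcgttg
Canx, chr10:35158064-35158092 (-): cttgtCCAATcatcacgctCCACGaagaa
Creld2, chr7:121789234-121789262 (-): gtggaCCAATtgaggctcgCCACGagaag
Dnajc3, chr15:102432529-102432557 (+): caaagCCAATcagcgccaaCCACGaccca
Xbp1, chr14:84604553-84604581 (+): acaggCCAATcgcagacggCCACGaccct
Derl3, chr20:12766596-12766624 (+): gctagCCAATaaggaagtcCCACGgtaga
Hyou1, chr8:53602689-53602709 (-): tgcggATTGGcCCACGtcacg
Hyou1, chr8:53602789-53602809 (-): tccccATTGGgCCACGtagaa
Herpud1, chr19:10614816-10614836 (-): cgctgATTGGgCCACGttggg
Dnajb11, chr11:91672795-91672815 (-): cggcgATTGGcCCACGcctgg

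**Figure D1:**
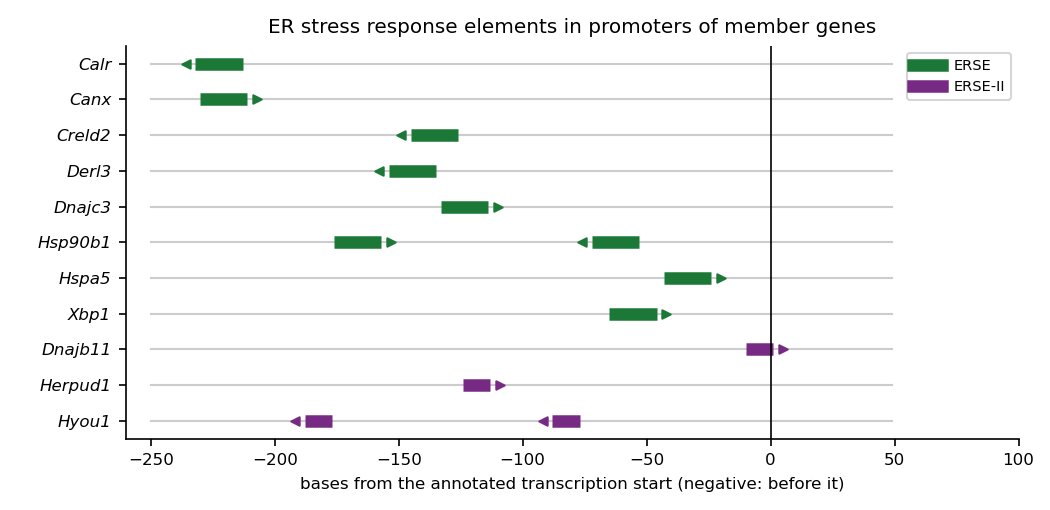
Position of each ERSE (green) and ERSE-II (purple) in bases from the annotated transcription start, for the 11 member genes whose promoter holds one. Arrowheads point in the direction in which the motif reads relative to the gene, and Hsp90b1 and Hyou1 carry 2 matches each.

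The targeted microRNA is printed with its seed, bases 2 to 8 from the 5′ end, in capitals, as given by RefSeq for GRCr8.
rno-miR-142-3p, chr10:73055155-73055177 (+): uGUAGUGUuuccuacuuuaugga
Its mature form is not measured by these polyA libraries, so the table does not check how far it was silenced.

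The libraries held between 19472409 and 24622667 fragments, as recovered from the deposited FPKM (counted fragments scaled to gene length and library total). A gene was tested with limma if it averaged 1 FPKM or more over the 6 libraries, on log2(FPKM + 1), with Benjamini-Hochberg adjustment over all 12024 of them and a threshold of 0.05. Of all tested genes 9.21% were called lower and 17.5% higher with the antagomiR. Summed over the 12 fibroblast markers the level was 13129, 13341 and 13363 FPKM in NC replicates 1, 2 and 3 and 12411 to 12655 FPKM in the antagomiR libraries. Singly, 6 of the 12 were called higher and 3 lower. The 15 leukocyte markers summed to 151, 220 and 771 FPKM in NC replicates 1, 2 and 3 and to 987 to 1099 FPKM in the antagomiR libraries. Of these markers 6 were called higher with all libraries and 14 without NC replicate 3. In this list NC replicate 3 was the NC library nearest to the antagomiR group, whereas in the fibroblast list and the smooth muscle list it was the farthest. Results are given without it where that matters. The 9 smooth muscle and pericyte markers summed to 5565, 6099 and 6309.8 FPKM in NC replicates 1, 2 and 3 and to 3478 to 3798 FPKM in the antagomiR libraries, with 6 of 7 tested called lower. The 11 cardiomyocyte markers summed to 429.7, 475 and 446 FPKM in NC replicates 1, 2 and 3 and to 352 to 416 FPKM in the antagomiR libraries. Singly, 3 of 9 tested were called higher and 1 lower. The 8 endothelial markers summed to 3.66, 3.16 and 4.54 FPKM in NC replicates 1, 2 and 3 and to 5.17 to 5.84 FPKM in the antagomiR libraries. Of these markers 1 of 2 tested was called higher, and Emcn was at 0 in all libraries. The part of these shifts in the results that follow was not tested, and in a bulk sample fewer cells of a type and less RNA per cell cannot be told apart.

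ER chaperone and UPR genes were lower, by modest amounts, with the antagomiR more often than they were higher. Of the 38 members tested, 13 fell, 1 rose and 24 did not pass the test. The share called was 36.8%, beside 26.7% of all tested genes. The share that fell was 34.2%, beside 9.21% of all tested genes, and the share that rose was 2.63%, beside 17.5%. Counts by role in the paragraphs below rest on few genes and are to be read beside these shares of all genes. At an unadjusted p under 0.05 there were 15 lower and 2 higher. The share of all tested genes at that threshold is not given here, so these counts have no background beside them. The median log2 fold change (antagomiR minus NC, on the log2(FPKM + 1) scale throughout) was -0.08 over the members and 0.06 over all genes. No member changed by as much as 0.5 on that scale, and the range ran from -0.42 for Hspa5 to 0.46 for Sdf2l1. The 3 antagomiR libraries lay below all 3 NC libraries for 17 members (15.4% of all tested genes did so) and above them for 1 (29.2%), while ranges that did not overlap in either direction were found for 44.6% of all tested genes. Only Hspa5, Hyou1 and Creld2 were called in all 17 fits run, that is with all libraries and under 16 alternatives. The count of called members was 20 (17 lower, 3 higher) without NC replicate 3, beside 13.9% of all genes lower and 26.5% higher in that fit. It was 13 and 8 without NC replicates 1 and 2, and 5, 6 and 4 without antagomiR replicates 1, 2 and 3. In the fit with the replicate number as a block, only Hspa5, Hyou1, Creld2, Eif2ak3 and Sil1 were called. Apart from that of Serpinh1, the lost calls given for single genes below leave that fit out. Of all called genes 65.6% were higher with the antagomiR. That share was 51.4% when libraries were scaled by median ratios and 43.1% when quantiles were equalised, a step that shifted the median fold change over all genes by -0.11 (log2). Among the members these scalings gave 16 and 15 lower and 1 higher each. The shares of all tested genes called under each scaling are not given here. Counts under a scaling, also those in the paragraphs below, thus have no background beside them.

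**Figure D2:**
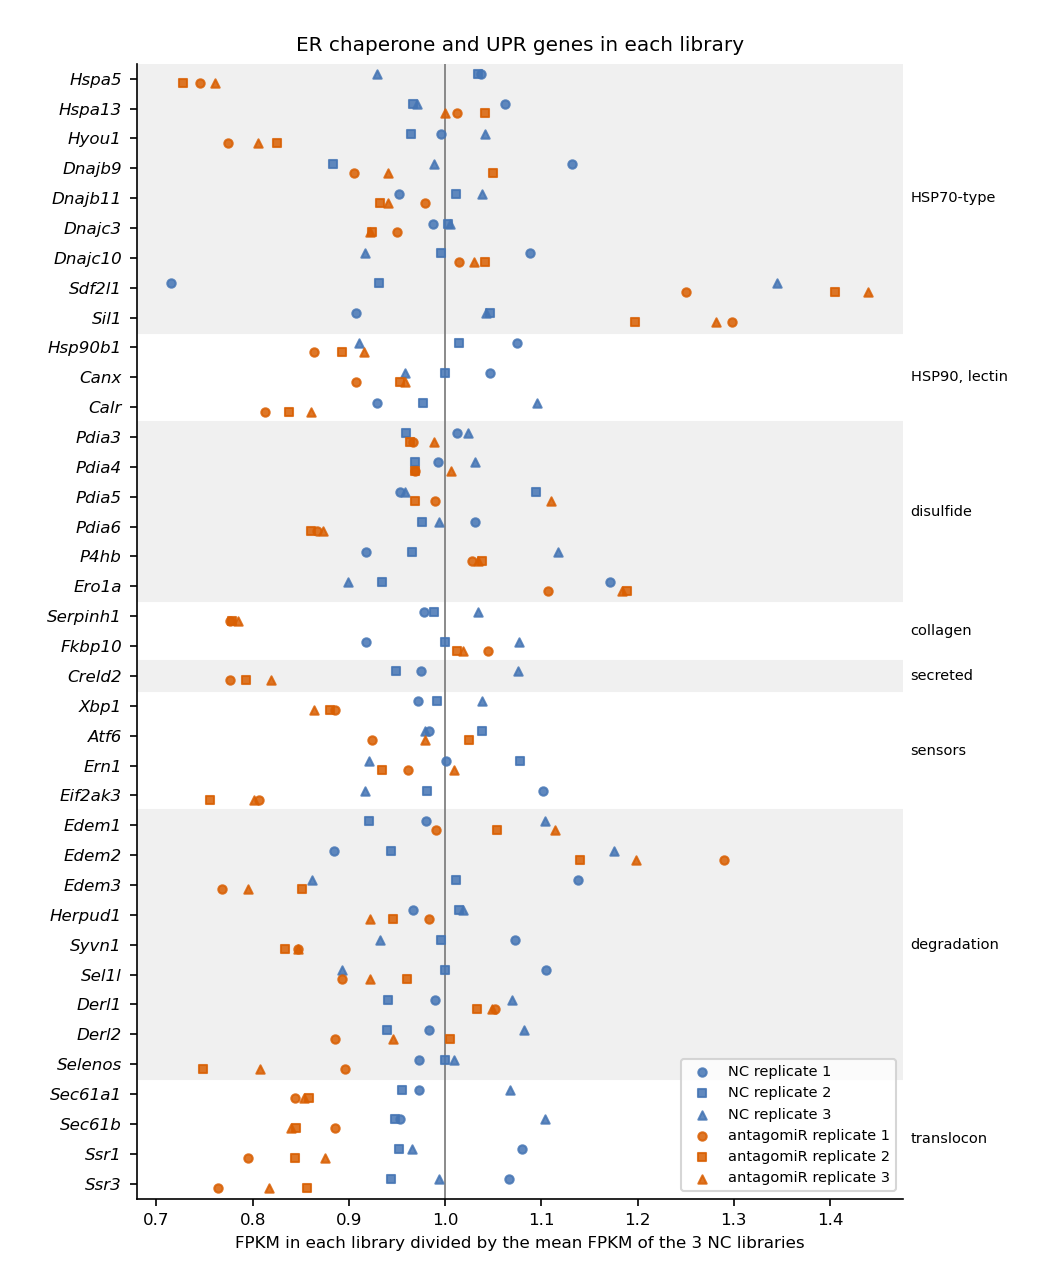
FPKM of each of the 38 tested members in each library, divided by the mean of the 3 NC libraries (vertical line at 1). Blue marks NC and orange the antagomiR, marker shapes give the replicate, and grey bands separate the roles. For 17 members all orange points lie to the left of all blue points, and for Sil1 they lie to the right.

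Levels spanned a wide range and the antagomiR libraries were the tighter group. In NC the highest member was the collagen chaperone Serpinh1 at 1296 ± 38.6 FPKM (mean ± SD, n = 3), followed by Calr at 609 and P4hb at 581 FPKM, and the lowest tested member was Ern1 at 7.43 FPKM. The median coefficient of variation over members was 7.03% between NC libraries and 3.12% between antagomiR libraries. Sdf2l1 was the most variable member in NC, at 32.2%. Among the NC libraries, replicate 3 held the highest value of 20 members and the lowest of 11. Tested members had between 172 recovered fragments in a library (Sdf2l1) and 64095 (Serpinh1), so counting error is largest for Sdf2l1.

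The HSP70-type system binds exposed hydrophobic stretches of newly imported chains. Its central chaperone, Hspa5 (BiP), had the largest fall among the members. Hspa5 (ENSRNOG00000018294, chromosome 3 from 18055405 to 18059891 in mRatBN7.2) was at 412, 410.4 and 369 FPKM in the 3 NC libraries, in order of replicate, and at 296, 289 and 302 FPKM in the 3 antagomiR libraries. The antagomiR mean was 0.745 times the NC mean, with no overlap between groups (log2 fold change -0.42, SE 0.06, limma adjusted p = 0.00332). Hyou1, a large HSP70 relative that also acts as a nucleotide exchange factor for BiP, was at 67.2, 65.1 and 70.3 FPKM in the NC libraries and at 52.3, 55.7 and 54.4 FPKM in the antagomiR libraries. It too fell without overlap, to 0.801 times the NC mean (log2 fold change -0.31, SE 0.05, limma adjusted p = 0.00519). Over all 17 fits the fold change ran from -0.49 to -0.37 for Hspa5 and from -0.38 to -0.28 for Hyou1.

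Sil1, the other nucleotide exchange factor for BiP in the list, moved the opposite way and was the only member that rose. It was at 21.6, 24.9 and 24.8 FPKM in the NC libraries and at 30.9, 28.5 and 30.5 FPKM in the antagomiR libraries. All antagomiR libraries lay above all NC libraries (1.26 times the mean, log2 fold change 0.32, SE 0.07, limma adjusted p = 0.0152). The call was lost without antagomiR replicate 1 (limma adjusted p = 0.0655) and replicate 3 (0.068), and the model overlaps another annotated gene, ENSRNOG00000067928. Sdf2l1, which binds BiP together with J-domain partners, was at 8.3, 10.8 and 15.6 FPKM in the NC libraries and at 14.5, 16.3 and 16.7 FPKM in the antagomiR libraries. NC replicate 3 lay inside the antagomiR range, and the gene did not pass the test (log2 fold change 0.46, SE 0.20, limma adjusted p = 0.129). Once NC replicate 3 was left out it passed, at 0.68 (limma adjusted p = 0.00255).

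J-domain co-chaperones stimulate the ATPase of BiP and bring substrates to it, and none of the 4 passed the test by limma, by voom or at an unadjusted p under 0.05 (0 in each). Dnajc3 came closest, at 57, 57.9 and 58 FPKM in the NC libraries and at 54.8, 53.3 and 53.2 FPKM in the antagomiR libraries. The groups did not overlap, but the ratio was 0.932 (log2 fold change -0.10, limma adjusted p = 0.142). It was called lower under median-ratio scaling (-0.17, limma adjusted p = 0.0356). Dnajb9, Dnajb11 and Dnajc10 had ratios of 0.965, 0.95 and 1.03 with overlapping ranges, and the HSP70-type Hspa13 had a ratio of 1.02. The direction of Hspa13 and Dnajc10 reversed under median-ratio scaling and under quantile normalization.

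Calr and Canx, lectin chaperones that hold glycoproteins during folding, and Hsp90b1 (GRP94), the HSP90 of the ER, all had negative fold changes, and 1 of the 3 passed. Calr fell from 566, 595 and 667 FPKM to 495, 510.1 and 524 FPKM, with no overlap (log2 fold change -0.25, SE 0.08, limma adjusted p = 0.0469). It sat at the edge of the threshold. Its call was lost without NC replicate 2 (limma adjusted p = 0.106) and without antagomiR replicates 1, 2 and 3 (0.154, 0.131 and 0.121), and in the fits without a filter (0.0916) or without a trend (0.0519). Hsp90b1 was at 372, 351 and 315 FPKM in the NC libraries and at 299, 309 and 317 FPKM in the antagomiR libraries. Its ranges touched only through NC replicate 3, and it was called lower without that library, at -0.23 (limma adjusted p = 0.01), but not with all 6 (-0.16, SE 0.07, adjusted p = 0.144). Canx had a ratio of 0.938 and was not called in any fit.

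The disulfide isomerases form and rearrange disulfide bonds and are reoxidised by Ero1a. Pdia6, which is also known to bind and attenuate IRE1 and PERK, was the 1 of 6 that fell. It was at 170.2, 161 and 164 FPKM in the NC libraries and at 143, 142 and 144 FPKM in the antagomiR libraries, without overlap (ratio 0.866, log2 fold change -0.21, SE 0.05, limma adjusted p = 0.0187). The call was lost without antagomiR replicate 1, 2 or 3 (limma adjusted p = 0.0731, 0.0803 and 0.0856), and the model overlaps Atp6v1c2. P4hb, the classical protein disulfide isomerase and a subunit of collagen prolyl hydroxylase, was at 533, 561 and 649 FPKM in the NC libraries and at 597, 603 and 601 FPKM in the antagomiR libraries. Its ratio was 1.03, and all antagomiR values lay within the NC range. Pdia3, Pdia4 and Pdia5 had ratios of 0.974, 0.984 and 1.02 with overlapping ranges. Ero1a was at 19.8, 15.8 and 15.2 FPKM in the NC libraries and at 18.7, 20.1 and 20 FPKM in the antagomiR libraries (log2 fold change 0.21, SE 0.10, limma adjusted p = 0.169), and it was called higher only without NC replicate 1 (adjusted p = 0.0148). Signs of Pdia3, Pdia5 and P4hb differed between scalings.

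Of the collagen chaperones, 1 of 2 fell. Serpinh1 (HSP47), which binds the folded procollagen triple helix, fell from 1268, 1281 and 1340.3 FPKM to 1006, 1009 and 1017 FPKM. Its antagomiR values were the tightest of any tested member, and the ranges lay far apart (ratio 0.779, log2 fold change -0.36, SE 0.06, limma adjusted p = 0.00613). The call was lost only in the fit with a replicate block (limma adjusted p = 0.0606). Fkbp10 (FKBP65), a prolyl isomerase that works on the same substrate, was at 145, 158 and 170.2 FPKM in the NC libraries and at 165, 159.9 and 161 FPKM in the antagomiR libraries (ratio 1.03, limma adjusted p = 0.696). Its annotated span covers 5 other genes of the table, so its value is less certain, and its sign reversed under median-ratio scaling. The difference between the pair was not tested.

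Creld2, a secreted folding factor that is known to be induced by ER stress, fell from 23.1, 22.5 and 25.5 FPKM to 18.4, 18.8 and 19.4 FPKM. The groups did not overlap (ratio 0.796, log2 fold change -0.31, SE 0.06, limma adjusted p = 0.0103). Its largest adjusted p over all 17 fits was 0.0487.

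Of the sensors and the transcription factor XBP1, Eif2ak3 and Xbp1 fell while Ern1 and Atf6 did not pass. Eif2ak3 (PERK), the kinase that phosphorylates the initiation factor eIF2, was at 23.9, 21.3 and 19.9 FPKM in the NC libraries and at 17.5, 16.4 and 17.4 FPKM in the antagomiR libraries. Its ratio was 0.787, without overlap (log2 fold change -0.33, SE 0.08, limma adjusted p = 0.0187). That call was lost without NC replicate 2 (limma adjusted p = 0.0569) and without any of the antagomiR replicates 1, 2 and 3 (0.0546, 0.0761 and 0.0637). Xbp1, whose mRNA is spliced by IRE1, was at 85.5, 87.3 and 91.4 FPKM in the NC libraries and at 77.9, 77.5 and 76 FPKM in the antagomiR libraries. The groups did not overlap (ratio 0.876, log2 fold change -0.19, SE 0.05, limma adjusted p = 0.0269). The call was lost without NC replicate 2 (limma adjusted p = 0.0786), without antagomiR replicate 1, 2 or 3 (0.0848, 0.0897 and 0.123) and without a trend (0.0502). Gene-level FPKM do not separate spliced from unspliced Xbp1, and they do not measure sensor activation. Atf6 and Ern1 (IRE1) had ratios of 0.977 and 0.968 with overlapping ranges.

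Among the ER-associated degradation (ERAD) genes, 2 of 9 tested members fell and none rose by limma. At an unadjusted p under 0.05 there were 3 lower and 1 higher, and voom called 2 lower and 0 higher. Shares of all genes in these counts are not given here. Syvn1 (HRD1), the ubiquitin ligase at the centre of the pathway, fell from 25.2, 23.4 and 21.9 FPKM to 19.9, 19.6 and 19.9 FPKM (ratio 0.841, log2 fold change -0.24, SE 0.06, limma adjusted p = 0.0298). Selenos (VIMP), which recruits the p97 ATPase to the membrane, fell from 109, 112 and 113 FPKM to 100.3, 83.8 and 90.4 FPKM (ratio 0.82, log2 fold change -0.29, SE 0.07, limma adjusted p = 0.0249). Neither pair of groups overlapped. Syvn1 lost its call without any 1 library other than NC replicate 3 (limma adjusted p from 0.0624 to 0.102) and overlaps Mrpl49, and Selenos lost it without NC replicate 2 (0.0829) and without antagomiR replicates 2 and 3 (0.0819 and 0.0953).

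The Edem genes encode lectins that mark misfolded glycoproteins for removal, and none of the 3 passed in the fit of all 6 libraries without further scaling. Edem3 was at 20.6, 18.3 and 15.6 FPKM in the NC libraries and at 13.9, 15.4 and 14.4 FPKM in the antagomiR libraries (log2 fold change -0.29, SE 0.10, limma adjusted p = 0.0754). Edem2 was at 7.68, 8.19 and 10.2 FPKM in the NC libraries and at 11.2, 9.9 and 10.4 FPKM in the antagomiR libraries (log2 fold change 0.26, SE 0.10, limma adjusted p = 0.114). In both genes NC replicate 3 was the NC value nearest to the antagomiR group, and without it Edem3 was called lower (limma adjusted p = 0.00412) and Edem2 higher (0.00561). Edem3 was also called lower with all libraries under median-ratio scaling (limma adjusted p = 0.0388) and quantile normalization (0.0337). Edem1 had a ratio of 1.05. Sel1l, the partner of Syvn1, had a ratio of 0.925 and was called lower only without NC replicate 3 (limma adjusted p = 0.0433). Herpud1, which organises the Syvn1 complex, and the channel-forming derlins Derl1 and Derl2 had ratios of 0.95, 1.04 and 0.945 with overlapping ranges.

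Derl3 was below the filter and was not tested. It was at 0.237, 0.444 and 0.78 FPKM in NC, from 6, 14 and 20 fragments, and at 0.83, 1.31 and 0.942 FPKM in the antagomiR libraries, from 24, 42 and 28 fragments. The antagomiR values lay above the NC values, and in the fit without a filter limma gave an adjusted p of 0.111. Its span overlaps Smarcb1, and without a stated strand setting the reads of the pair cannot be told apart.

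All 4 translocon genes were lower in every antagomiR library than in any NC library, and 3 of them fell. Of all tested genes 15.4% lay below in this way and 9.21% were called lower. Sec61a1, the pore subunit of the channel, fell from 109, 107 and 119.5 FPKM to 94.5, 96.2 and 95.6 FPKM (log2 fold change -0.23, SE 0.06, limma adjusted p = 0.0231). Ssr1 and Ssr3, subunits of the translocon-associated TRAP complex, were at 83.7, 73.8 and 74.8 FPKM and at 62.5, 55.3 and 58.2 FPKM in NC. With the antagomiR they were at 61.6, 65.4 and 67.8 FPKM and at 44.8, 50.2 and 47.9 FPKM. Their log2 fold changes were -0.25 (SE 0.07, limma adjusted p = 0.0325) and -0.29 (SE 0.07, limma adjusted p = 0.0177). Sec61b, a small channel subunit, was at 184, 183 and 213 FPKM in the NC libraries and at 171, 163 and 162 FPKM in the antagomiR libraries, and missed the threshold (-0.22, SE 0.07, limma adjusted p = 0.0583). Without NC replicate 3 it passed (limma adjusted p = 0.0309), as it did in both scalings. Sec61a1 lost its call without antagomiR replicate 1, 2 or 3 (limma adjusted p = 0.0878, 0.0758 and 0.092) and overlaps Ruvbl1. Ssr1 lost it without any 1 library other than NC replicate 3 (from 0.0558 to 0.121), and Ssr3 without antagomiR replicates 1 and 3 (0.0716 and 0.068).

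**Figure D3:**
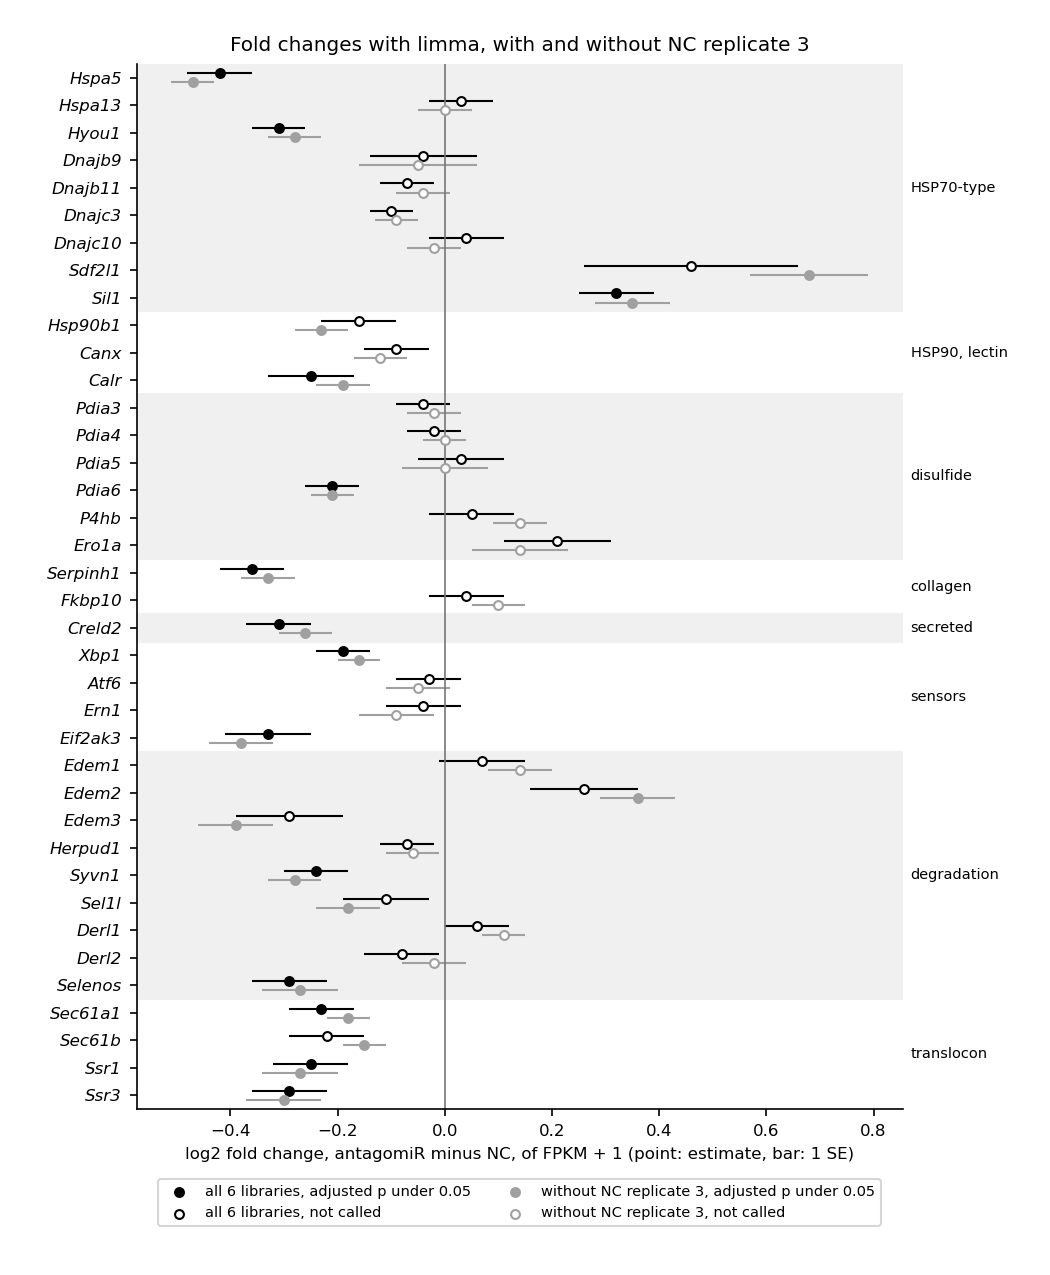
Log2 fold change of each tested member (antagomiR minus NC, on log2(FPKM + 1)) with all 6 libraries (black) and without NC replicate 3 (grey); bars are 1 SE and filled points passed a limma adjusted p of 0.05. With all libraries 13 members are filled to the left of 0 and Sil1 alone to the right, and without NC replicate 3 these numbers are 17 and 3.

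The promoter motifs and the calls can be set side by side. Of the 7 tested members with an ERSE, 4 fell (Hspa5, Calr, Creld2 and Xbp1). All 7 had negative fold changes, and their median log2 fold change was -0.19. Of all 12024 tested genes 4685 had a negative fold change. The other tested members with an ERSE, Canx, Dnajc3 and Hsp90b1, had ratios of 0.938, 0.932 and 0.89. Derl3, which also holds an ERSE, was too low to be tested, and its ratio was 2.11. Of the 3 with an ERSE-II, Hyou1 fell, and Dnajb11 and Herpud1 each had a ratio of 0.95. Of the 20 tested members whose promoter held neither motif, 6 fell and 1 rose, with a median of -0.06. These numbers describe the members, and the difference between them was not tested. Of all tested genes 9.21% were called lower and 17.5% higher.

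The integrated stress response lies below PERK and other kinases of eIF2, such as PKR. Phosphorylated eIF2 favours translation of ATF4, which switches on genes of amino acid supply and, at length, the pro-apoptotic factor CHOP. Of 23 tested genes of that response 9 fell (39.1%, beside 9.21% of all genes) and 3 rose (13%, beside 17.5%), and the median log2 fold change was -0.16. Ddit3, which encodes CHOP, was among the risen genes, at 41.4, 48.9 and 44.4 FPKM in the NC libraries and at 99.1, 91.9 and 94 FPKM in the antagomiR libraries. That is a rise of 1.07 on the log2 scale (SE 0.07, limma adjusted p = 0.000124), larger than the change of any tested member described above. The span of Ddit3 overlaps Mars1. Cebpb, a transcription factor that is also part of inflammatory responses, rose from 30, 27.8 and 43.3 FPKM to 74.5, 69.6 and 75.4 FPKM (1.12, SE 0.15, limma adjusted p = 0.0022). Trib3, a known target of ATF4 and CHOP, went the other way, from 43.3, 42 and 53.6 FPKM to 33.8, 35.4 and 31.3 FPKM (-0.45, SE 0.10, limma adjusted p = 0.016), and lost its call without antagomiR replicates 1 and 3 (0.0557 and 0.0692). Atf4 itself was at 325 ± 6.84 FPKM in the NC libraries and at 298 ± 14.1 FPKM in the antagomiR libraries (n = 3) and did not pass (limma adjusted p = 0.15). Its groups did not overlap, and Atf4 was called lower under median-ratio scaling (-0.19, limma adjusted p = 0.0457). Ppp1r15a, the eIF2 phosphatase subunit, is listed at 0 in all 6 libraries, which may not show its level in the cells.

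Named after their values were seen, the other fallen genes of that response were Chac1, Sesn2, Phgdh, Mthfd2, Slc7a5, Vldlr, Eif4ebp1 and Cth, with log2 fold changes from -0.50 for Mthfd2 to -0.19 for Sesn2, and the other risen gene was Atf5 at 0.28. Phgdh, Mthfd2, Slc7a5 and Cth serve serine synthesis, folate metabolism, amino acid import and cysteine synthesis. Without NC replicate 3, 11 genes of the response fell and 5 rose, beside 13.9% of all genes lower and 26.5% higher in that fit. Without antagomiR replicates 1 and 3 the called genes of the response numbered 7 and 6.

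**Figure D4:**
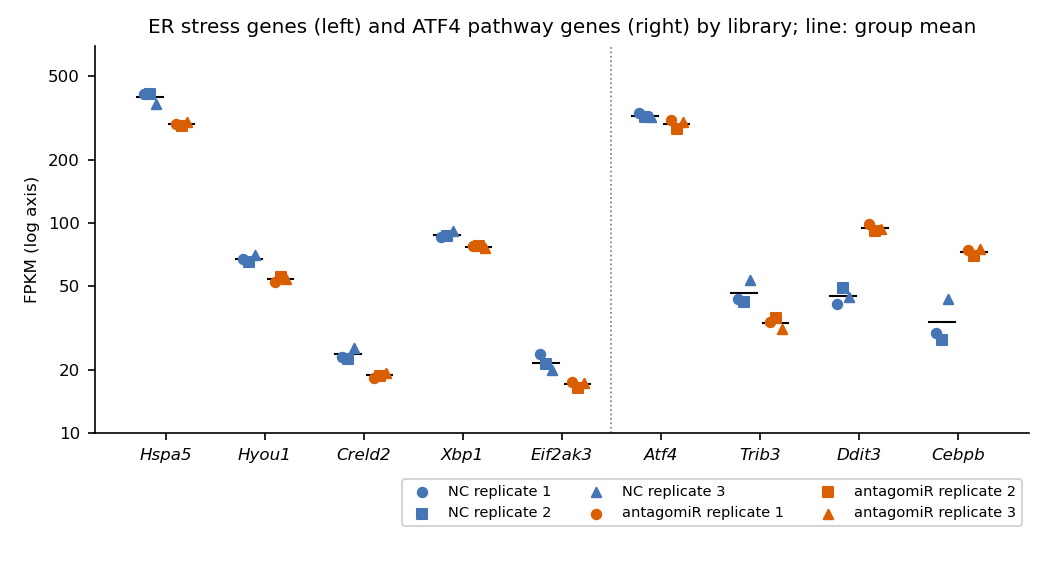
FPKM on a log axis in each library for ER stress genes (left of the dotted line) and genes of the ATF4 pathway (right), with NC in blue, the antagomiR in orange and a line at each group mean. Hspa5, Hyou1, Creld2, Xbp1, Eif2ak3, Atf4 and Trib3 are lower in all antagomiR libraries, whereas Ddit3 and Cebpb are higher in all of them. The ER stress genes shown are all members that were called lower. Members that rose or were not called, such as Sil1, Sdf2l1, Dnajb9 and Herpud1, are not shown.

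Of 44 tested genes of ER to Golgi transport 7 fell (15.9%, beside 9.21% of all genes) and none rose by limma, with a median log2 fold change of -0.09. At an unadjusted p under 0.05 there were 15 lower and 1 higher, and voom called 8 lower and 0 higher. Shares of all genes in these counts are not given here. Median-ratio scaling gave 18 lower and quantile normalization 14, so the size of this count depends on the scaling. Shares of all genes called lower under these scalings are not given here. Sec23a, a coat subunit of the vesicles that leave the ER, fell from 40.8, 40.2 and 37.8 FPKM to 31.1, 32 and 30.9 FPKM (-0.33, SE 0.05, limma adjusted p = 0.00401). Kdelr3, a receptor that returns escaped chaperones to the ER, fell by 0.44 (limma adjusted p = 0.00289), and Creb3l2, a transcription factor of secretory cells, by 0.43 (0.00466). The spans of Kdelr3 and Sec24d each overlap another annotated gene. The coat subunit gene Sec24d fell by 0.20 and lost its call without NC replicate 2 (limma adjusted p = 0.0857) and without antagomiR replicates 1, 2 and 3 (0.054, 0.0905 and 0.113). Mia3 and Sec31a were not called with all libraries (limma adjusted p = 0.949 and 0.106). Without NC replicate 3, 15 genes of this list fell and 2 rose, with Mia3 and Sec31a called lower (0.0254 and 0.0445). Of all genes 13.9% were called lower and 26.5% higher in that fit.

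Further translocon, signal peptidase and glycosylation genes gave 5 that fell (11.9%, beside 9.21% of all genes) and 1 that rose (2.38%, beside 17.5%) of 42 tested. Ostc and Stt3b, subunits of the oligosaccharyltransferase that glycosylates entering chains, fell by 0.41 and 0.36 (limma adjusted p = 0.00183 and 0.00282). The span of Stt3b overlaps Osbpl10. Sec61g, Sec62, Sec63 and Tram1 were not called, with fold changes between -0.09 and 0.05. Of 43 further chaperones and folding enzymes 7 fell and 4 rose, and the share called was 25.6%, beside 26.7% of all genes. Among them were Qsox2, a sulfhydryl oxidase, at -0.42 (limma adjusted p = 0.00693) and Txndc12, a thioredoxin-like protein, at 0.50 (0.0282). Txndc12 lost its call without NC replicate 2 and without each antagomiR replicate (limma adjusted p = 0.07, and from 0.0615 to 0.0984), without a filter (0.06) and with quantile normalization (0.0806). Its span overlaps Btf3l4 and Kti12. Erp29, Erp44, Txndc5 and Ppib were not called, although Erp29 was called higher without NC replicate 3 (limma adjusted p = 0.0264). In that list 8 fell and 11 rose without NC replicate 3, beside 13.9% of all genes lower and 26.5% higher in that fit. Median-ratio scaling gave 10 lower and 1 higher.

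ERAD genes outside the named members were called in 10.8% of cases, beside 26.7% of all genes. Of 37 tested genes 1 fell and 3 rose, with a median log2 fold change of 0.01, but 4 were lower and 1 higher with median-ratio scaling, and 7 were lower and 2 higher with quantile normalization. Os9, a lectin that delivers glycoproteins to the Syvn1 complex, rose from 64.1, 69.7 and 70.2 FPKM to 83.6, 79.1 and 80.9 FPKM (0.25, limma adjusted p = 0.0149), and lost its call under median-ratio scaling (0.0576) and without antagomiR replicates 1 and 3 (0.0681 and 0.0662). Man1a1, a mannosidase of N-glycan trimming, rose by 0.64 (limma adjusted p = 0.000678). Foxred2, a binding partner of the ERAD machinery, fell by 0.32 (limma adjusted p = 0.0419) and lost its call without any 1 library other than NC replicate 3 (from 0.0667 to 0.148), without a filter (0.0536) and with a pseudocount of 0.01 (0.0528). Vcp and Ube2j1 were not called. The spans of Os9 and Foxred2 overlap Cdk4 and Eif3d.

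Among 33 tested regulators and partners of the stress sensors 8 rose (24.2%, beside 17.5% of all genes) and 5 fell (15.2%, beside 9.21%), or 6 and 10 after quantile normalization. Eif2ak2 (PKR), an eIF2 kinase that is induced by interferon, rose from 11.4, 11.5 and 15.7 FPKM to 27.9, 26.5 and 27.6 FPKM (1.05, limma adjusted p = 0.000958). Traf2, an adaptor of IRE1 and of TNF receptors, rose by 0.60 (limma adjusted p = 0.00826), and Crebrf, a regulator of CREB3, by 0.72 (0.00158). Atf6b, the paralog of Atf6, fell by 0.19 (limma adjusted p = 0.018) and lost its call without NC replicate 2 (0.0569) and without antagomiR replicates 1, 2 and 3 (0.0669, 0.0656 and 0.0973). Mbtps1 and Mbtps2, the proteases that release ATF6, were not called.

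Of 31 tested cytosolic and mitochondrial chaperone genes 4 rose (12.9%, beside 17.5% of all genes) and 2 fell (6.45%, beside 9.21%), or 2 and 2 after either scaling, and the median log2 fold change was 0.09. The cytosolic relative of BiP, Hspa8, was at 518, 561 and 549 FPKM in the NC libraries and at 679, 645 and 661 FPKM in the antagomiR libraries (0.29, SE 0.06, limma adjusted p = 0.0132), although its call was lost without antagomiR replicates 1 and 3 (0.0637 and 0.0701). Hsph1, a nucleotide exchange factor for HSP70, rose by 0.68 (limma adjusted p = 0.00037). Hsp90aa1 and Hsp90ab1 were not called with all libraries (limma adjusted p = 0.835 and 0.0725), and Hsp90ab1 was called higher without NC replicate 3 (0.00479) and by voom (0.0451). The span of Hsp90ab1 overlaps Aars2 and Nfkbie. Without NC replicate 3, 11 genes of the list rose and 4 fell, beside 26.5% of all genes higher and 13.9% lower in that fit.

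**Figure D5:**
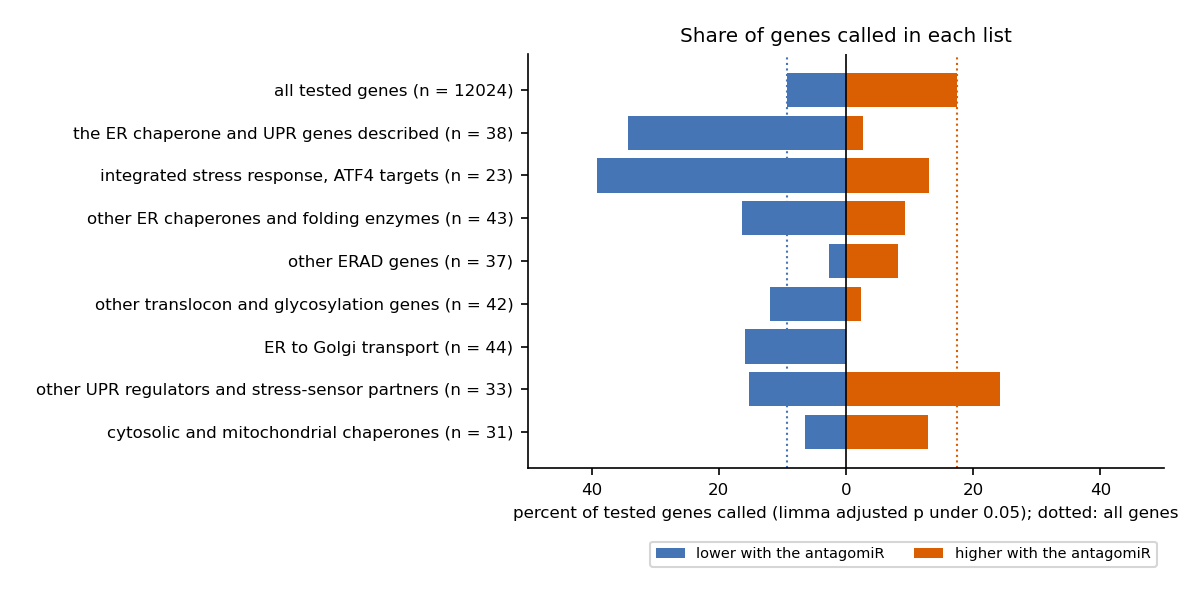
Percent of tested genes called lower (blue, to the left) and higher (orange, to the right) with the antagomiR by limma in all genes, in the members and in 7 further lists; dotted lines mark the shares of all tested genes. The members reach 34.2% on the lower side and 2.63% on the higher side, against 9.21% and 17.5% of all genes.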

How the data were processed

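Polyadenylated RNA was converted to cDNA (NuGEN Ovation), made into TruSeq libraries and read as pairs of 150 bp, per the labels' protocols. FastQC, cutadapt, HISAT2, HTSeq, edgeR and the build mRatBN7.2 are listed, without versions, in the submitters' processing notes. Annotation release and strand setting are not given in the sources used here, so reads of overlapping genes or near-identical copies may be shared. The authors deposited FPKM, 1 column per library, and the number of sample columns left without a label was 0.

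Library totals were recovered from genes spanning under 400 bp, where FPKM times length steps by whole fragments. A length giving whole fragments in every library, within 0.01, existed for 100% of the 20134 genes above 0, and those fragments summed to 99.66% or more of each total. These totals set the precision of low genes: 3 fragments on a gene of 1 kb correspond to between 0.122 and 0.154 FPKM, a floor for counting error only. The test was limma 3.58.1 in R 4.3.3, with a trended eBayes fit to log2(FPKM + 1), two-sided and without a replicate block. That scale understates changes of low genes. The fit was tested on simulated data. Alternatives were pseudocounts of 0.1 and 0.01, no filter, a minimum mean of 5 FPKM, median-ratio scaling, quantile normalization, the block, no trend, robust variances, voom on recovered fragments, and leaving out each library. For the 7 pathway lists they were added after seeing the data.

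All members were named, with the first 4 genes of each pathway list and up to 2 called genes with the largest fold change; 1 of these genes is not reported here. The members and lists were chosen with earlier results of these data known, and the ERSE-II search was added after the data were seen. Protein sequences were not used here.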

Additional observations from a re-analysis of the deposited data

How the results depend on the processing

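Fold changes of the members kept direction and side of the threshold in 527 of the pairs of a gene and an alternative, lost the call in 47, gained it in 13 and reversed in 21, all of the latter in genes that were not called. The reversals were Hspa13 (-0.04 under both scalings), Dnajc10 (-0.02 and -0.01), Pdia5 (-0.04 and -0.05), P4hb and Fkbp10 (-0.02 and -0.03 with median ratios), Derl1 (-0.0036 with median ratios), Pdia3 and Edem1 (0.03 and -0.01 with quantiles). When 1 library was left out the ranges were -0.12 to 0.04 for Dnajb9, -0.02 to 0.11 for Dnajc10, -0.03 to 0.09 for Pdia5, -0.01 to 0.14 for P4hb, -0.02 to 0.10 for Fkbp10, -0.07 to 0.0037 for Atf6 and -0.09 to 0.01 for Ern1. The reversals among them were Dnajb9 (0.04), Pdia5, P4hb and Fkbp10 (-0.01, -0.01 and -0.02) without NC replicate 1, Ern1 (0.01) without NC replicate 2, Dnajc10, Pdia4 and Pdia5 (-0.02, 0.00072 and -0.0028) without NC replicate 3, Atf6 (0.0037) without antagomiR replicate 1 and Pdia5 (-0.03) without antagomiR replicate 3.

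Without 1 library, 4 to 20 members and 1883 to 4862 of all genes were called, the highest counts both without NC replicate 3 although that fit has fewer libraries. For the lists these ranges were 6 to 16 for ATF4 targets, 4 to 19 for further chaperones, 1 to 10 for further ERAD genes, 2 to 9 for further translocon genes, 5 to 17 for ER to Golgi transport, 6 to 18 for sensor partners and 1 to 15 for cytosolic and mitochondrial chaperones. Further ERAD genes went from 4 to 2 called without a filter and 9 with quantile normalization, and ER to Golgi transport from 7 to 18 with median-ratio scaling and 14 with quantile normalization. The cause was not tested.

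With the replicate block 5 members (4 lower, 1 higher), 6 further chaperones, 1 further ERAD gene, 3 further translocon genes and 1 cytosolic or mitochondrial chaperone were called. Deviations of equally numbered libraries from their group means correlated at -0.16, -0.06 and -0.04, and those of unequally numbered libraries at -0.06 to 0.13. With 3 libraries per group these values cannot show whether an equal number marks a shared culture or isolation. Depth limits Derl3 most, with 6 to 42 fragments.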

Other observations

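Outside the members, 28 promoter entries held an ERSE or ERSE-II. Of the table's genes with those symbols 12 were tested and 3 were called, all higher with the antagomiR by limma. Beside them, 26.7% of all tested genes were called and 17.5% of all tested genes were called higher. Nucb1, a calcium-binding protein of the Golgi, was at 125 ± 6.26 FPKM in the NC libraries and 153 ± 3.82 FPKM in the antagomiR libraries (SD, n = 3; limma adjusted p = 0.00906). Its span overlaps Tulp2 and Ppp1r15a, the latter listed at 0 in all libraries, so their reads may be shared. Birc5, the mitotic protein survivin, was at 4.06 ± 0.894 and 6.42 ± 0.261 FPKM (limma adjusted p = 0.018), and Cdc45, a replication factor, at 1.45 ± 0.36 and 2.45 ± 0.109 FPKM (0.0198). Ero1b, the paralog of Ero1a, was at 3.69 ± 0.288 and 3.19 ± 0.239 FPKM and was not called (limma adjusted p = 0.208). Zfand2a, Hnrnpa3, Ankmy2 and Pan2 were not called either (limma adjusted p from 0.375 to 0.501). These genes were named after their values were seen.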
